A study of Mus musculus with 22 samples.

Results

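Full-length DUX was compared with mCherry alone in mouse embryonic stem cells, across all genes of the deposited table that holds both. The comparison uses the 2 libraries of the group FL and the 2 of the group mCherry, 4 of the 22 samples of the series, chosen by those column names. All 4 came from a stem cell line with the genotype Dux-/-, so the cells' own Dux had been knocked out in the control too. FL cells carried full-length DUX joined to mCherry, a red fluorescent protein, and mCherry cells carried the fluorescent protein alone. Cells grew in 2iLIF, a medium with inhibitors of 2 kinases and leukaemia inhibitory factor that holds stem cells in the naive state. After plating they recovered for 24 hours, doxycycline (0.25 ug/mL) was then present for 12 hours, and poly(A) RNA was sequenced. The transgene's promoter, the number of clones and whether the replicates were separate cultures are not given in the sources used here. P-values therefore measure only a spread between replicate libraries, pooled over the 14 libraries of the table, which may be technical.

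DUX is a transcription factor with a pair of homeodomains that is made briefly at zygotic genome activation in the mouse. It binds DNA and switches on genes of the 2-cell embryo, among them Zscan4, Usp17l and Eif1a-like gene families and transcripts that start in the long terminal repeats of MERVL, an endogenous retrovirus. Stem cells with a 2-cell-like state are known to lose expression of parts of the pluripotency network. The gene arrays of the 2-cell embryo are left aside here in favour of single-copy genes, lowered genes, pathways and developmental regulators.

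The libraries held 32168300 and 31391063 reads in FL and 31203170 and 23949774 in mCherry. The deposited values are reads divided by 1 size factor per library, called normalised reads here, so they compare libraries for 1 gene and not genes of different length. Duxf3 (ENSMUSG00000075046, chromosome 10, 58229979 to 58232675, minus strand), the knocked-out gene, had 0 reads in every library of the table, so it does not check the labels. Replicates correlated at Pearson's r 0.993 in mCherry and 0.964 in FL on the log2 scale across genes, which are not independent replicates. Genes with high copy number, 1593 genes, took 2.06% and 1.91% of reads in FL but 0.310% and 0.340% in mCherry. In 2 other constructs of the series the same gap separates the replicates of 1 construct, so this difference in counting and the FL group cannot be told apart for genes with shared sequence. Genes are therefore called low-copy below where under 10% of their 50-base stretches occur in another gene. Within 2 other constructs that have 1 library of each kind, the median difference between the kinds lay between -0.67 and 0.87 (log2) over the 58 gene lists used. Members that differed at least 4-fold the same way in both constructs were found in 1 list, as 2 of the 20 Lhx, Pax, Irx and sine oculis-type genes. Of 10 embryonic stem cell markers, 0 were called higher and 5 lower in FL, and their summed level was 71368 and 86283 normalised reads in FL against 96769 and 94134 in mCherry. Of 10 fibroblast (feeder cell) markers, 5 were at 0 in all 4 libraries (Lum, Dcn, Twist2, Prrx1 and S100a4), and the list summed to 161 and 90.5 in FL and 61.4 and 78.9 in mCherry.

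Expression changed across much of the transcriptome. Of 21584 genes tested, 9531 (44.2%) were called, 5290 higher (24.5%) and 4241 lower (19.6%) in FL. A call here is a Benjamini-Hochberg adjusted p under 0.05 from limma and a log2 difference of at least 1, on log2(normalised reads + 1). Among the 16631 low-copy genes the balance was the other way, with 2645 higher (15.9%) and 3750 lower (22.5%). Low-copy protein-coding genes gave 1689 higher and 3072 lower of 13787, and changes of at least 3 on the log2 scale were seen in 523 called higher and 406 called lower. Pseudogenes were mostly raised, 2060 higher and 181 lower of 3216, and 352 higher and 67 lower of the 610 that are low-copy. Long noncoding genes gave 554 higher and 483 lower of 1874, and 400 higher and 451 lower of the 1622 that are low-copy.

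The genes called higher took 57.7% and 49.6% of all FL reads against 13.4% and 13.6% of mCherry reads, and genes with 0 reads in both mCherry libraries alone took 36.7% and 26.3% of FL reads. Both sets include genes with shared sequence, for which the difference in counting and the FL group cannot be told apart. The 6 copies of the chromosome 10 array held from 852419 (Gm4340) to 1014275 (Gm21293) reads each in FL replicate 1. Reads of such genes also enter the library totals used for scaling below. The genes called lower took 1.76% and 2.59% of FL reads against 13.5% and 13.7% of mCherry reads. The libraries are bulk RNA, so fewer cells with a transcript and less of it per cell cannot be told apart.

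**Figure D1:**
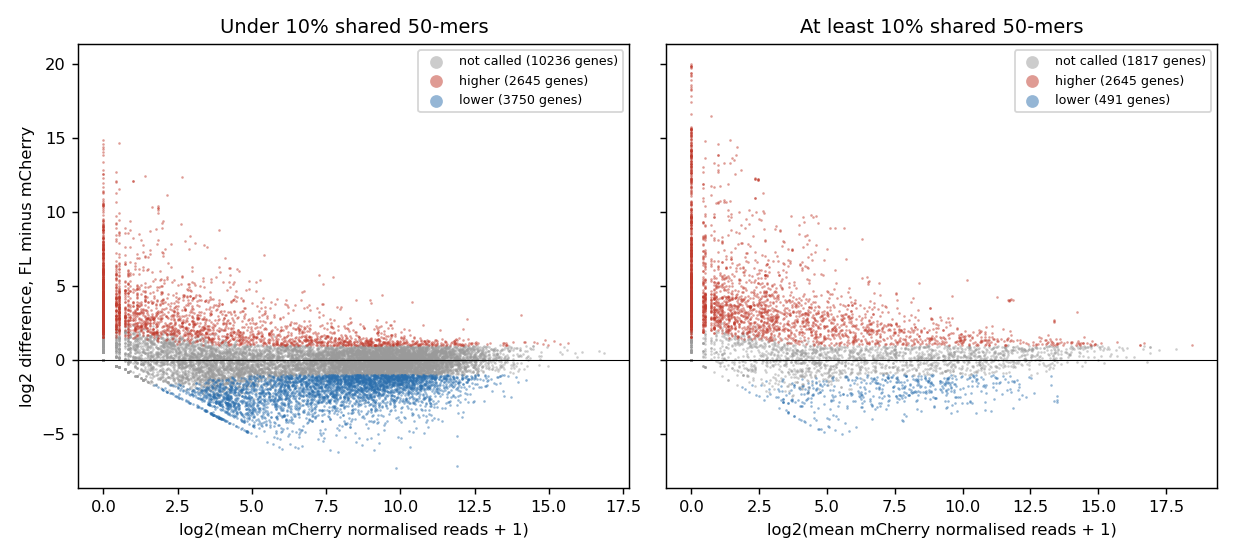
Each point is a tested gene: the x axis is log2 of the mean mCherry level plus 1, the y axis the log2 difference FL minus mCherry, with low-copy genes on the left and genes with shared sequence on the right. The left panel holds 2645 higher and 3750 lower genes, the right panel 2645 higher and 491 lower.

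The FL replicates differed in the size of the response. Of the low-copy genes called higher, 63.3% had more in replicate 1 than in replicate 2, and of those called lower only 33.7% did, so both directions were on balance stronger in replicate 1. Leaving out either FL replicate moved the fold change of 35 of the 150 called genes named here by over 1.5 times. With 2 replicates the shift is equal in size whichever is left out, so the same count follows. No direction turned, but the naming rule asks for no overlap between groups, which fixes this in advance for genes that meet it. Both libraries are printed for most of these genes. The scale also matters for direction. The authors' size factors and the library totals differ by 1.03 (log2) between FL and mCherry. With scaling to the library total the median of all genes tested was -0.87 in place of 0.09, and higher calls were 28.0% of all calls in place of 55.5%. With quantile normalisation the median was -0.27 and the share 41.2%, and with libraries centred on low-copy genes the share was 69.6%. The direction of a single gene named below with its values holds under these scalings unless stated. Of the 58 gene lists, 55 had unequal numbers of higher and lower calls, and in 25 of them the balance turned under at least 1 of the 3 scalings. Where it turned under quantile normalisation or scaling to the library total, the turned counts are given beside the list. Centring on low-copy genes turned 10 lists, each from more lower calls to more higher calls, and those counts are given too. All list counts are to be read against 24.5% higher and 19.6% lower of all genes tested. Low-copy protein-coding genes, closer in kind to most lists, were 12.3% higher and 22.3% lower.

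The start sites of the most raised genes are shown because DUX is a DNA-binding factor and several of them carry the same letters. Windows from 250 bases before to 50 bases after the start site were taken from RefSeq (GRCm38.p6), and 12940 of the 21584 tested genes had one. The sequence GATTNAATC (N for any base) is its own reverse complement, so 1 search covers both strands. It was in 21 of 1851 windows of genes called higher (1.13%). The same letters were in 4 of 2917 windows of genes called lower (0.137%), in 15 of 8172 of genes not called (0.184%) and in 0.268% of all windows. Among the 200 genes with a log2 rise of at least 6 it was in 15 (7.5%), of which 6 are copies in 1 array on chromosome 10. Windows of Gm12724, Gm35974, Gm33248 and Gm12790, also among them, were 86.2% to 88.2% identical to that of Gm21293 in the array. The 15 are therefore not separate cases. Among low-copy genes the shares were 8 of 1459 higher (0.548%) and 14 of 7450 not called (0.188%). Low-copy refers to the transcript and not to the start site, and the 8 include Gm35974 and Gm12790. They also include Esp24 and I0C0044D17Rik, whose windows have gctatggattccagaa directly before the letters, as that of Gm21293 does. The 8 are therefore not separate cases either. The others are 9330104G04Rik, Dlg4, Ppm1j and Hydin, with log2 differences of 4.92, 2.26, 1.05 and 1.01. With a T added before it and an A after it, the longer sequence was in 0 of the 1851 windows of genes called higher and in 0.0335% of all 32851 windows. A match of letters is a description and not a bound site.

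Windows of 5 raised genes that hold the inner sequence follow, 5′ to 3′ on the strand of the gene, with GATTNAATC in capitals. They are chosen as different arrays or chromosomes among rises of at least 6: Gm21293 at chr10:104142737-104143036, Gm35974 at chr16:3468210-3468509, Gm33248 at chr7:129667175-129667474 and Gm13057 at chr4:143551450-143551749, all on the plus strand, and Gm21761 at chr13:119913419-119913718 on the minus strand.
Gm21293: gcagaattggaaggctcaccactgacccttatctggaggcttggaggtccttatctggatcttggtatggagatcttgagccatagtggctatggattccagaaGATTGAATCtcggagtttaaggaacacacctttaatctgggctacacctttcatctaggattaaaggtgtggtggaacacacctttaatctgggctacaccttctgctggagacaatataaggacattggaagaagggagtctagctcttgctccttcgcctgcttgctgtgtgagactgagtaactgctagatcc
Gm35974: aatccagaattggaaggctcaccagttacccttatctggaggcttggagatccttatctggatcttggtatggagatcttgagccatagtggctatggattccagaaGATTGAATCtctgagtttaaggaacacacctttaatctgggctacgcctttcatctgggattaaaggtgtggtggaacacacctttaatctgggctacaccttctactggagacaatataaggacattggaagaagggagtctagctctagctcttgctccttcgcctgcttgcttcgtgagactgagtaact
Gm33248: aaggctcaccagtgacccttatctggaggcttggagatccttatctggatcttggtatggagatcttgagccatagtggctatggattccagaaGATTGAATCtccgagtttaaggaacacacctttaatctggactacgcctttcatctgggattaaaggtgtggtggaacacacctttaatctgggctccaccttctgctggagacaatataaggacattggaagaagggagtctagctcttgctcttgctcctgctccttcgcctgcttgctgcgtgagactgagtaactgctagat
Gm13057: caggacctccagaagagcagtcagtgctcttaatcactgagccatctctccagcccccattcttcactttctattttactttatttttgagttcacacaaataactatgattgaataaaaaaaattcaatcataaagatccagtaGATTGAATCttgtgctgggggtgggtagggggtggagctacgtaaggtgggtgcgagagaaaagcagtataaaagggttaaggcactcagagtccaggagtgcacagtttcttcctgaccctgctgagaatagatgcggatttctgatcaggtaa
Gm21761: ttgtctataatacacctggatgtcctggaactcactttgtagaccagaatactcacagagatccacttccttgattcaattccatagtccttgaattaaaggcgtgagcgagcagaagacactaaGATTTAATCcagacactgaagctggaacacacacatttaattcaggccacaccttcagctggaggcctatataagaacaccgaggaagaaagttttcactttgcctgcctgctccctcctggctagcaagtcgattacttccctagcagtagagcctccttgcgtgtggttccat

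Windows on different chromosomes were alike well beyond the 9 letters. Aligned on the capitals without gaps, the Gm21293 window was 88.2% identical to that of Gm35974 over 297 bases and 87.6% identical to that of Gm33248 over 290 bases, and the last pair shared 90.6% over 287 bases. The Gm13057 and Gm21761 windows shared 27.0% and 28.3% with Gm21293 in that alignment. An inserted or lost base lowers such a share, and likeness with gaps was not tested. Stretches such as ggaacacac and gctggag after the capitals are in both the Gm21293 and Gm21761 windows, so those windows may be related. The capitals lie 142, 139, 152, 101 and 121 bases before the start site in the order printed. Gm35974 was at 628 and 467 normalised reads in FL and 0 and 0.858 in mCherry, and Gm33248 at 439 and 431 in FL and 0.660 and 0 in mCherry. Gm12790 on chromosome 4, whose window is 86.7% identical to that of Gm21293 over 300 bases, was already read in mCherry and went from 16.5 and 11.2 normalised reads there to 1127 and 1192 in FL (log2 difference 6.31, SE 0.40, limma adjusted p = 2.28e-08).

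Genes of the 2-cell embryo outside the large arrays mostly rose. Of 24 such genes tested, 5 of them with shared sequence, 16 were higher and 3 lower, with a median log2 difference of 5.07 (4.47 with genes at 0 set to their bound). Tmem92, a membrane protein gene and marker of the 2-cell-like state (ENSMUSG00000075610, chromosome 11, 94777217 to 94782703), was read 27587 and 25400 times in FL and 0 and 1 times in mCherry (limma adjusted p = 8.65e-12). Zfp352, a zinc finger gene of the 2-cell embryo (ENSMUSG00000070902, chromosome 4, 90218820 to 90225702), gave 5283 and 3893 reads in FL and none in mCherry, which makes it at least 2727-fold higher with a floor of 3 reads per library (limma adjusted p = 1.71e-11). Both are close to absent without DUX and abundant with it. Lower in FL within the list were Nr5a2, an orphan nuclear receptor, Pif1, a DNA helicase, and Trim43c, for which few reads were counted.

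Other low-copy protein-coding genes among the 12 largest rises had few or no reads in the controls. The dopamine receptor gene Drd3 had 2519 and 3128 reads in FL and 5 and 1 in mCherry, and the muscarinic acetylcholine receptor gene Chrm3 1917 and 1293 and 1 and 0. Dcc, a netrin receptor gene of axon guidance, gave 1704 and 1246 reads in FL and none in mCherry, at least 877-fold higher (limma adjusted p = 2.87e-08). The chemokine gene Ccl3 was at least 657-fold higher, with 1297 and 909 reads in FL and 0 in mCherry (adjusted p = 1.57e-09). In each the reads in mCherry were between 0 and 5. Also in this set, and each with at most 1 read in either mCherry library, were B020031M17Rik (at least 7952-fold), 4931428L18Rik (at least 2837-fold), Ankrd22 (at least 723-fold), the lipid phosphatase gene Inpp4b (at least 419.7-fold), the inhibitory immune receptor gene Cd200r1 (at least 326-fold) and Trim75, with 2491 and 2507 reads in FL.

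Among 10 known inducers of the 2-cell state only Nelfa was called higher, and 2 were lower. With libraries centred on low-copy genes 3 were higher and 2 lower. Nelfa, a subunit of the negative elongation factor that also acts in 2-cell activation (ENSMUSG00000029111, chromosome 5, 33897916 to 33936413), went from 1355 and 1323 normalised reads in mCherry to 23817 and 17265 in FL, 15.3-fold by the means (log2 difference 3.92, SE 0.16, limma adjusted p = 2.21e-10). This differs from the genes above in starting from a sizeable level in the controls. Nr5a2 was 236 and 237 in FL and 1698 and 1701 in mCherry, and Zfp281, a zinc finger repressor and regulator of pluripotency exit, 799 and 831 in FL and 2253 and 2042 in mCherry. They had log2 differences of -2.84 and -1.40 (adjusted p = 5.06e-07 and 1.50e-04). Of 29 chromatin repressors of the 2-cell state, 2 were higher and 9 lower. Trim28, the corepressor that silences retroviruses, was 64582 and 58282 in FL and 28795 and 28728 in mCherry (log2 difference 1.09, adjusted p = 1.40e-05), a call that is lost with edgeR (0.93) and with scaling to the library total (0.06) and turns to -0.18 with quantile normalisation. Max, the partner of Myc, was 467 and 581 in FL and 1861 and 1952 in mCherry and fell by 1.87 (SE 0.13, limma adjusted p = 8.18e-08). Rif1, a telomere and replication timing factor, was 2465 and 2356 in FL and 7709 and 7790.0 in mCherry and fell by 1.68.

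**Figure D2:**
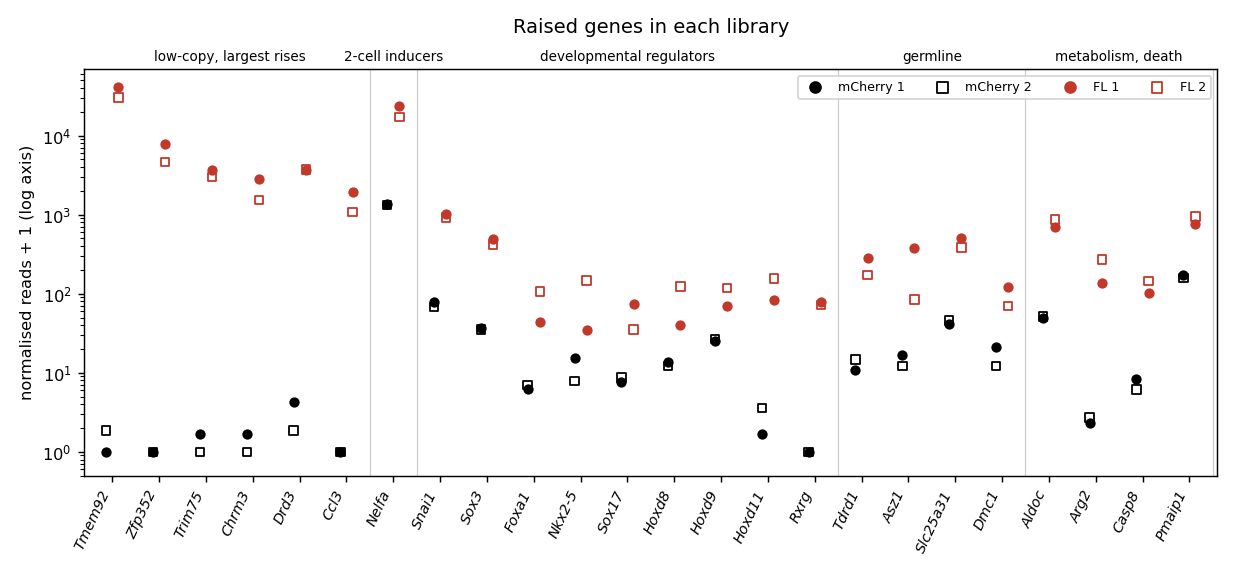
Normalised reads plus 1 (log y axis) of raised genes in each library, with mCherry in black, FL in red, circles for replicate 1 and open squares for replicate 2. FL lies above mCherry for each of the 24 genes, which were chosen as raised. By the means the rise is at most 1 order of magnitude for genes such as Sox17, Hoxd8, Hoxd9, Dmc1 and Pmaip1. It is over 3 orders for Tmem92, Zfp352, Trim75, Chrm3 and Drd3. Ccl3 had 0 reads in both mCherry libraries, and its rise is given only as at least 657-fold.

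Most genes of the naive pluripotency network fell. Of its 20 tested genes 16 were lower and 0 higher, against a background of 19.6% lower, with a median log2 difference of -2.22. The 4 not called were Nr0b1, Dppa3, Tcl1 and Tdh. Fgf4, the growth factor that drives ERK signalling in stem cells (ENSMUSG00000050917, chromosome 7, 144847367 to 144865243), was at 45.7 and 255.9 normalised reads in FL and 3858 and 3911 in mCherry (log2 difference -5.15, SE 0.59, adjusted p = 6.63e-06, limma). Tbx3, a T-box factor of the naive state, was at 181 and 490.4 in FL and 4388 and 4247 in mCherry (log2 difference -3.85, SE 0.32, adjusted p = 3.57e-07, limma). For both genes replicate 1 was the lower of the FL libraries. Socs3, the feedback inhibitor of LIF signalling, was 41.3 and 255 in FL and 1886 and 1859.8 in mCherry and fell by 4.17, and Gbx2, a homeobox gene downstream of LIF, was 36.8 and 20.2 in FL and 359.6 and 308 in mCherry and fell by 3.56 (limma adjusted p = 2.15e-05 and 3.74e-07).

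The core factors did not move together. Core pluripotency genes gave 7 lower and 0 higher of 15, with a median of -0.86. Sox2, the partner of OCT4 (ENSMUSG00000074637, chromosome 3, 34650405 to 34652461), was at 463 and 1039 normalised reads in FL and 4962 and 4866 in mCherry (log2 difference -2.82, SE 0.28, adjusted p = 1.62e-06, limma). Trim71, a let-7 target and RNA-binding ubiquitin ligase, was at 345 and 425 in FL and 4596 and 4209 in mCherry and fell by 3.52 (SE 0.14, adjusted p = 2.11e-10). Lin28a, which blocks let-7 processing, was at 585 and 165 in FL and 2976 and 2784 in mCherry and fell by 3.20 (limma adjusted p = 4.75e-05), and Foxd3, a forkhead repressor, fell by 3.47 from 559.5 and 578 to 45.7 and 55.9. Lin28a was the lower in FL replicate 2 where Sox2 was the lower in FL replicate 1. Nanog and Esrrb, named after their values were seen, were at 4589.5 and 7052 in FL and 16214 and 15907 in mCherry and 2032 and 2871 in FL and 13469 and 13881 in mCherry, and had log2 differences of -1.50 and -2.50 (limma adjusted p = 1.47e-04 and 1.89e-06). Pou5f1, the gene of OCT4 and likewise outside the rule, was at 19308 and 20815 in FL and 12414 and 12697 in mCherry and was not called (log2 difference 0.68, SE 0.15, adjusted p = 0.00175). Its difference was positive with the authors' size factors and negative with quantile normalisation and with scaling to the library total, and with libraries centred on low-copy genes it was called higher (1.04).

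Krüppel-like factors, several of which sustain the naive state, were the list with the lowest median, -2.40, with 12 of 17 lower and 0 higher. Klf10, a TGF-beta-inducible member (ENSMUSG00000037465, chromosome 15, 38291463 to 38300706), was at 205 and 190.5 normalised reads in FL and 2009.8 and 2030.5 in mCherry (log2 difference -3.35, SE 0.15, adjusted p = 4.40e-10, limma). Klf11 was at 30.9 and 45.2 in FL and 482 and 454 in mCherry, Klf15 at 17.7 and 41.7 in FL and 409 and 417 in mCherry and Klf16 at 98.7 and 135 in FL and 869.6 and 883 in mCherry, and they had log2 differences of -3.61, -3.87 and -2.92 (limma adjusted p = 4.49e-08, 1.48e-06 and 1.78e-05). The 4 are the largest falls without overlap in the list, so being lower in both FL libraries follows from the rule that named them.

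Genes of the formative and primed epiblast, the states that follow naive pluripotency, were mixed, with 2 higher and 4 lower of 16 and a median whose sign depends on the scaling. Sox3, a SoxB1 factor of the neural plate closely related to Sox2 (ENSMUSG00000045179, chromosome X, 60891366 to 60893430), was at 492 and 419 normalised reads in FL and 36.3 and 34.3 in mCherry (log2 difference 3.65, SE 0.16, adjusted p = 4.40e-10, limma). Zic2 was at 44.2 and 41.7 in FL and 240.2 and 259 in mCherry and Etv5, an ERK-responsive ETS factor, at 3263 and 2707 in FL and 9583 and 9897 in mCherry, and they had log2 differences of -2.51 and -1.71 (adjusted p = 3.01e-06 and 6.65e-06). Of the Etv5 sequence 24.5% is shared. Sox3 thus rose where Sox2 fell.

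**Figure D3:**
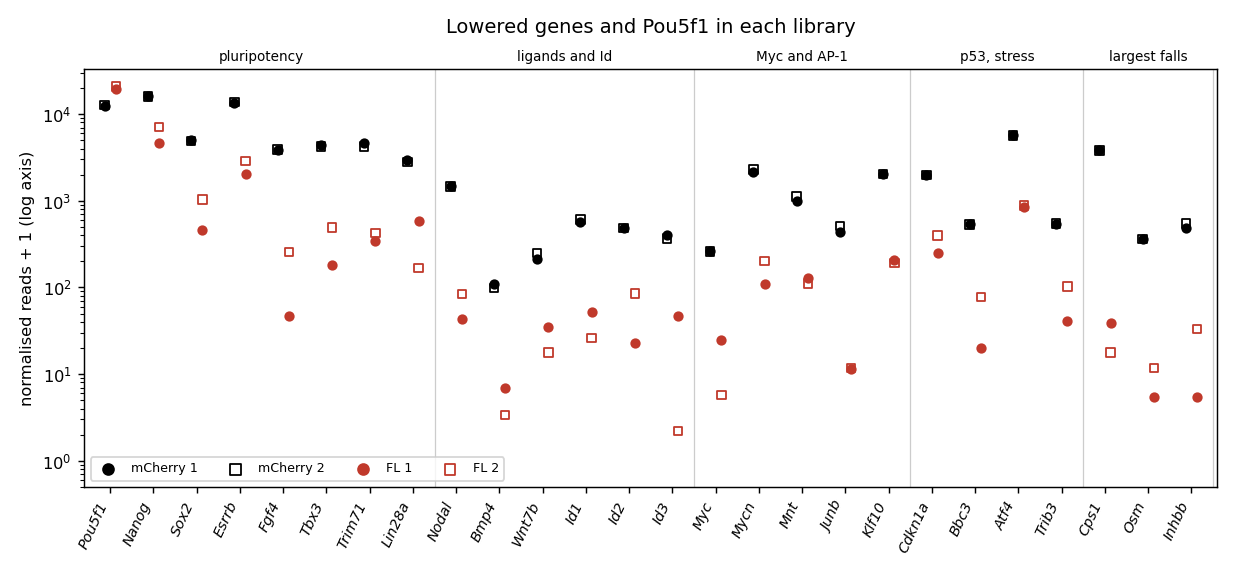
Normalised reads plus 1 (log y axis) in each library, with mCherry in black, FL in red, circles for replicate 1 and open squares for replicate 2. FL lies below mCherry in both replicates for each gene shown but Pou5f1, which was not called. The other genes were chosen as lowered, so their position follows from the choice.

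Ligand and feedback genes of FGF signalling were among its falls. Of 26 FGF and ERK genes 13 were lower and 3 higher. Beside Fgf4, the feedback phosphatase gene Dusp6 was at 8.84 and 26.2 in FL and 195 and 189.6 in mCherry and the feedback inhibitor gene Spry4 at 14.7 and 4.76 in FL and 155 and 169 in mCherry, log2 differences of -3.56 and -4.10 (limma adjusted p = 5.34e-06 and 7.75e-05). Spry1 fell by 2.81, from 122.7 and 132 to 13.3 and 22.6. The kinase gene Map2k2 was among the 3 higher, at 3072 and 2826 in FL and 1316 and 1451 in mCherry (log2 difference 1.09, SE 0.12, adjusted p = 4.50e-06, limma), with the phosphatase gene Dusp5 at 155 and 127 in FL and 68.6 and 54.9 in mCherry. Both calls are lost with scaling to the library total (0.06 and 0.16) and with quantile normalisation (0.84 for each), and that of Dusp5 with any 1 of the 4 libraries left out (log2 difference 1.02 to 1.34).

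Genes of both arms of the TGF-beta superfamily were among the falls. Nodal and Activin genes gave 8 lower and 0 higher of 17, and BMP and Id genes 10 lower and 3 higher of 20, with medians of -0.86 and -1.08. Nodal, the ligand that patterns the epiblast (ENSMUSG00000037171, chromosome 10, 61417972 to 61425338), was at 42.7 and 83.3 normalised reads in FL and 1483 and 1462 in mCherry (log2 difference -4.60, SE 0.26, adjusted p = 7.58e-09, limma). Smad7, the inhibitory SMAD, was at 66.3 and 157 in FL and 1379 and 1331 in mCherry and fell by 3.72 (limma adjusted p = 2.56e-07). Bmp4 was at 5.89 and 2.38 in FL and 109.5 and 97.8 in mCherry and fell by 4.44 (limma adjusted p = 1.57e-05). The Id genes, targets of BMP whose proteins block basic helix-loop-helix factors, were low in every FL library. Id1 was at 51.6 and 25 in FL and 573 and 605 in mCherry, Id2 at 22.1 and 84.5 in FL and 485 and 486 in mCherry and Id3 at 45.7 and 1.19 in FL and 405 and 365 in mCherry, log2 differences of -4.0, -3.45 and -5.25 (adjusted p = 6.38e-06, 3.20e-05 and 7.59e-04). The fall of Id3 was not called when only the FL and mCherry libraries were fitted (adjusted p = 0.0672). The 3 higher members of the BMP list, Bmp2, Bmpr1b and Msx1, had means under 50 normalised reads.

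Wnt genes gave 12 lower and 0 higher of 32 (37.5% lower), and Notch and Hippo genes 12 lower and 0 higher of 25 (48.0%), where 19.6% of all genes tested and 22.5% of low-copy genes were lower. Fzd5, a Wnt receptor (ENSMUSG00000045005, chromosome 1, 64730558 to 64737751), was at 118 and 209.5 normalised reads in FL and 1999 and 1957 in mCherry (log2 difference -3.64, SE 0.23, adjusted p = 2.58e-08, limma). The Wnt ligand genes Wnt6 and Wnt7b were at 4.42 and 7.14 in FL and 95.0 and 96.9 in mCherry and at 33.9 and 16.7 in FL and 212 and 248 in mCherry, log2 differences of -3.87 and -3.21 (limma adjusted p = 0.00168 and 0.00123), and the target gene Sp5 fell by 3.40. Hes1, the Notch-responsive repressor, was at 35.4 and 97.6 in FL and 992 and 996 in mCherry and fell by 4.05 (adjusted p = 6.49e-06). Amotl2, a YAP-binding protein and target of the Hippo pathway, was at 327 and 455 in FL and 3168 and 3317 in mCherry and fell by 3.07 (SE 0.16, adjusted p = 3.21e-09), and Notch1 fell by 2.39.

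Many immediate early and Myc network genes fell. Of 16 AP-1 and immediate early genes 10 were lower and 3 higher, and of 12 Myc network genes 7 were lower, 0 higher and 5 not called. Junb, an AP-1 subunit (ENSMUSG00000052837, chromosome 8, 84974484 to 84978718), was at 10.3 and 10.7 normalised reads in FL and 437 and 512 in mCherry (log2 difference -5.36, SE 0.32, adjusted p = 1.08e-08, limma). Nr4a1, an inducible nuclear receptor, was at 48.6 and 90.5 in FL and 985 and 959 in mCherry and fell by 3.85 (limma adjusted p = 1.21e-07). Egr1, a serum-response zinc finger gene, went the other way, with 37 and 61 reads in FL and 9 and 0 in mCherry (log2 difference 4.60, adjusted p = 6.77e-05), and Fos and Ier5 rose by 1.19 and 1.5. Fos and Ier5 did not pass with scaling to the library total (0.18 and 0.48), and Fos did not with quantile normalisation (0.51) or without mCherry replicate 1 (adjusted p = 0.0644).

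Myc, the growth-promoting basic helix-loop-helix factor, was at 23.6 and 4.76 normalised reads in FL and 263 and 259 in mCherry (log2 difference -4.46, SE 0.55, adjusted p = 1.42e-05, limma). Mycn, the family member known for its part in stem cells and embryos, was at 109 and 201 in FL and 2158 and 2290.4 in mCherry (log2 difference -3.90, SE 0.24, adjusted p = 1.81e-08, limma). Mycl was at 53 and 156 in FL and 430.2 and 418 in mCherry and the antagonist gene Mnt at 128 and 109.5 in FL and 1003 and 1114 in mCherry, log2 differences of -2.21 and -3.15 (limma adjusted p = 5.06e-04 and 2.97e-08). All 3 Myc genes, their partner gene Max and an antagonist were thus called lower.

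Targets of p53 were lowered in 15 of 25 and raised in 1. Cdkn1a, the p21 cell cycle inhibitor (ENSMUSG00000023067, chromosome 17, 29090976 to 29100727), was at 246 and 395 normalised reads in FL and 1989 and 1984 in mCherry (log2 difference -2.67, SE 0.22, adjusted p = 3.37e-07, limma). Bbc3, the gene of the death promoter PUMA, was at 19.2 and 76.2 in FL and 533 and 532 in mCherry and fell by 3.76 (adjusted p = 5.91e-05), and Trp53inp1 and Perp had log2 differences of -2.65 and -2.87. The 1 raised was Pmaip1, the gene of the death promoter NOXA, at 766 and 952 in FL and 172 and 156 in mCherry (log2 difference 2.37, SE 0.25, adjusted p = 3.76e-06, limma). PUMA and NOXA genes, both death promoters of the BH3-only type, therefore moved in opposite directions. Apoptosis regulators gave 12 lower and 2 higher of 26. Casp8, the initiator caspase of death receptors, was at 102 and 144 in FL and 7.26 and 5.15 in mCherry and rose by 4.10 (SE 0.29, adjusted p = 6.51e-08), while Casp2, another initiator caspase, fell by 3.37 from 565 and 564 to 45.7 and 63.1 and Bcl2l1, a survival factor, fell by 2.55 from 1132 and 1211 to 221 and 179.7.

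Genes of the integrated stress response moved both ways. Of 24 genes 5 were higher and 7 lower, with a median of -0.05 whose sign depends on the scaling. With libraries centred on low-copy genes the counts were 8 higher and 5 lower. Atf4, its central transcription factor (ENSMUSG00000042406, chromosome 15, 80255184 to 80257541), was at 838 and 876 normalised reads in FL and 5781 and 5673 in mCherry (log2 difference -2.74, SE 0.26, adjusted p = 1.34e-06, limma). Trib3 and Sesn2, targets of ATF4, were at 39.8 and 101 in FL and 538 and 548 in mCherry and at 933 and 1178 in FL and 3839 and 3865 in mCherry, log2 differences of -3.08 and -1.88 (adjusted p = 1.79e-05 and 3.25e-07). Asns, asparagine synthetase and also an ATF4 target, was at 25163 and 26391 in FL and 11455 and 11132 in mCherry (log2 difference 1.19, SE 0.14, adjusted p = 1.17e-05, limma), and Phgdh, which opens serine synthesis, at 6429.7 and 7243 in FL and 1768 and 1811 in mCherry. With scaling to the library total neither passed (0.16 and 0.90), with quantile normalisation Asns did not (0.13), and 47.8% of the Phgdh sequence is shared. The unfolded protein response gave 3 lower and 0 higher of 19, Xbp1, Atf6 and Herpud1.

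**Figure D4:**
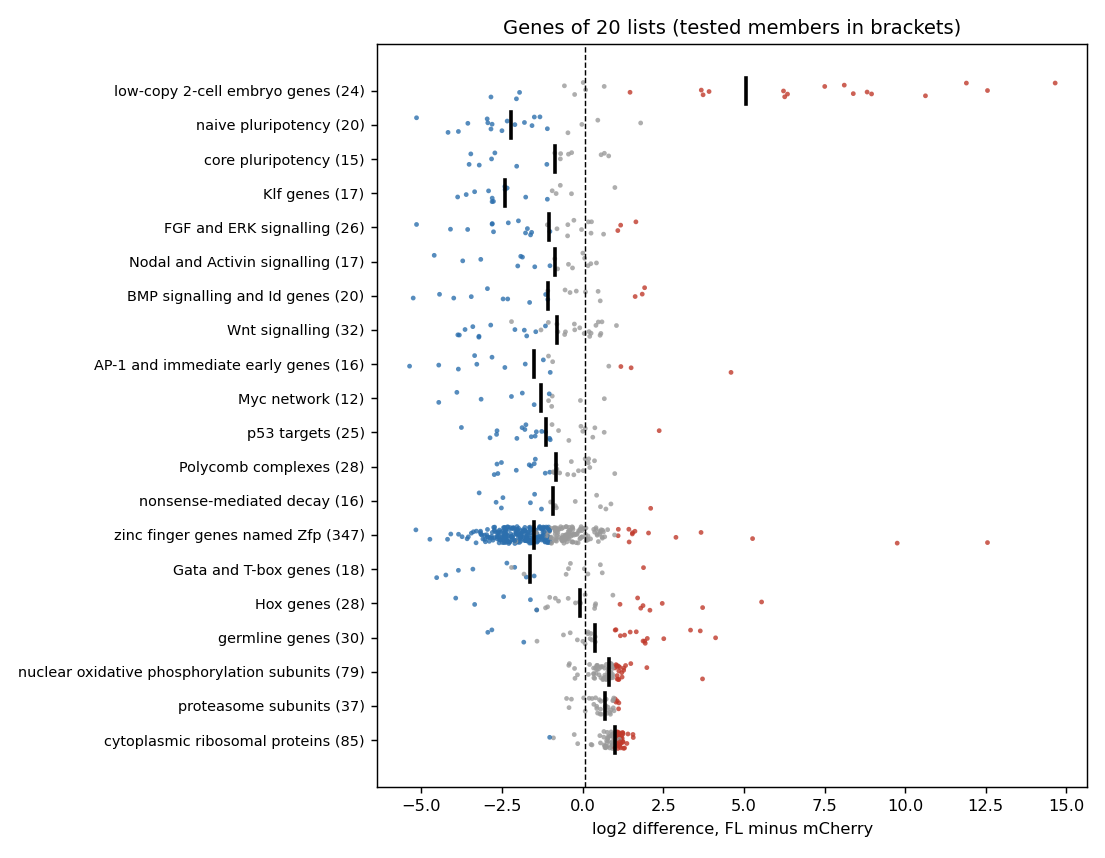
Log2 difference FL minus mCherry (x axis) of each tested gene of 20 lists, with called higher genes in red, called lower genes in blue, others in grey, list medians as black bars and the median of all genes tested, 0.09, as a dashed line. Medians run from -2.40 for Klf genes and -2.22 for naive pluripotency to 5.07 for low-copy 2-cell embryo genes.

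Chromatin regulators were mostly below the threshold, with falls in particular subunits. Polycomb complexes gave 11 lower and 0 higher of 28. Chromodomain subunits of PRC1 were among the falls, Cbx2 at 111 and 171 in FL and 876 and 836 in mCherry, Cbx6 at 172 and 277 in FL and 1377 and 1387 in mCherry and Cbx8 at 10.3 and 39.3 in FL and 139.9 and 143 in mCherry, with log2 differences of -2.63, -2.65 and -2.74 (limma adjusted p = 1.26e-06, 2.40e-07 and 0.00282). DNA methylation genes gave 5 lower and 1 higher of 17. Tet2, an enzyme that oxidises 5-methylcytosine, was at 361 and 533 in FL and 2998 and 3285 in mCherry (log2 difference -2.84, SE 0.23, adjusted p = 2.52e-07, limma) and Tet1 at 1684 and 2958 in FL and 7290.3 and 7844 in mCherry, a log2 difference of -1.76. Dnmt3l, the cofactor of de novo methylation, was the 1 higher, at 1569 and 807 in FL and 396 and 381 in mCherry (log2 difference 1.53, SE 0.32, adjusted p = 0.00107, limma), a difference of 0.50 with scaling to the library total. Without FL replicate 1 only 3 of the 5 falls passed.

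Zinc finger genes named Zfp fell in large number. Of 347 tested 220 were lower and 13 higher, with a median of -1.51, and of the 277 that are low-copy 168 were lower and 12 higher. Most of them code for KRAB or C2H2 proteins, many of which repress transposable elements through Trim28. On chromosome 7, which has clusters of them, 62 of 85 were lower and 2 higher, on chromosome 4 23 of 29 lower and 3 higher, and on chromosome 6 6 of 17 lower and 0 higher. Zfp180 was at 16.2 and 64.3 in FL and 597 and 623 in mCherry, Zfp78 at 10.3 and 7.14 in FL and 135 and 139 in mCherry and Zfp819 at 5.89 and 0 in FL and 105 and 83.2 in mCherry, log2 differences of -4.19, -3.85 and -5.17 (limma adjusted p = 3.73e-06, 1.86e-06 and 9.54e-05). Beside Zfp352, the raised members included Zfp560 at 1722 and 1069 in FL and 35.0 and 33.5 in mCherry and Zfp217, a corepressor-binding factor, at 4697 and 5780.5 in FL and 1249.7 and 1276 in mCherry, rises of 5.27 and 2.04 (limma adjusted p = 1.93e-09 and 2.85e-08).

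Factors of nonsense-mediated decay, the pathway that degrades transcripts with early stop codons, gave 7 lower and 1 higher of 16 with a median of -0.92. Smg5, which acts on phosphorylated UPF1 (ENSMUSG00000001415, chromosome 3, 88336260 to 88362338), was at 682 and 589 in FL and 3469 and 3813 in mCherry and Upf2, the bridge to the exon junction complex, at 362 and 308 in FL and 1840.2 and 1874 in mCherry, log2 differences of -2.52 and -2.47 (adjusted p = 1.00e-08 and 4.07e-06). Pnrc2, a decapping adaptor, fell by 3.21, from 1292 and 1177 to 81.0 and 217. Upf1 was just under the threshold, at a log2 difference of -0.99, and passed with edgeR (-1.15) and without FL replicate 1 (-1.09). The raised member was Magohb, with 26.8% shared sequence.

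Developmental regulators changed in both directions. Gata and T-box genes gave 8 lower and 1 higher of 18, and trophectoderm genes 6 lower and 0 higher of 18. Gata2, a trophoblast and blood GATA factor, was at 32.4 and 4.76 normalised reads in FL and 313 and 323 in mCherry (log2 difference -4.52, SE 0.71, adjusted p = 1.02e-04, limma). Tfap2c, an AP-2 factor of the trophoblast and germline, was at 84.0 and 158 in FL and 1514 and 1603 in mCherry and fell by 3.74 (adjusted p = 1.01e-06), and Elf3, an epithelial ETS factor, was at 136 and 218 in FL and 1204 and 1203 in mCherry and fell by 2.80. Cdx2, which starts the trophectoderm, was among the 6, at 4.42 and 0 in FL and 29.7 and 34.3 in mCherry, and its call was lost without FL replicate 2 (limma adjusted p = 0.0587).

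Some regulators of germ layers with low or moderate levels in the controls were raised. Snai1, the repressor that drives epithelial-to-mesenchymal transition at gastrulation (ENSMUSG00000042821, chromosome 2, 167538195 to 167542814), was at 1024 and 918 normalised reads in FL and 77.2 and 66.9 in mCherry (log2 difference 3.74, SE 0.61, adjusted p = 1.42e-04, limma). Sox17, an endoderm factor, was at 72.2 and 34.5 in FL and 6.6 and 7.72 in mCherry, Foxa1, a pioneer factor of endoderm, at 42.7 and 106 in FL and 5.28 and 6.0 in mCherry and Nkx2-5, a heart factor, at 33.9 and 146 in FL and 14.5 and 6.86 in mCherry. Their log2 differences were 2.65, 3.37 and 2.70 (limma adjusted p = 6.95e-04, 7.90e-06 and 9.72e-04). The lists they belong to did not move as a whole. Primitive endoderm genes gave 4 higher and 3 lower of 18 (3 and 7 with quantile normalisation, 2 and 9 with scaling to the library total), gastrulation and mesoderm regulators 2 and 2 of 17 (2 and 5 with each), neural regulators 4 and 5 of 20, Sox genes 4 and 6 of 17, and Fox genes 3 and 12 of 32. With libraries centred on low-copy genes neural regulators gave 5 higher and 4 lower and Sox genes 6 and 5. Gsc, an organiser homeobox gene, and Neurod1, a neural differentiation factor, were among the falls, at 4.42 and 17.9 in FL and 62.7 and 57.5 in mCherry and at 14.7 and 16.7 in FL and 138 and 91.8 in mCherry. Rest, the repressor of neuronal genes, was at 1531 and 2489 in FL and 4978 and 4925 in mCherry (log2 difference -1.34, SE 0.18, adjusted p = 3.40e-05, limma), and at -0.99 without FL replicate 1 and -0.98 with libraries centred on low-copy genes. With that replicate left out the neural list gave 7 higher and 2 lower. The calls of Gsc and Nkx2-5 were lost when only the FL and mCherry libraries were fitted (adjusted p = 0.0511 and 0.0754), and Neurod1 differed by -1.69 and -1.15 (kind of FL minus the other) in the 2 constructs that hold both kinds.

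Hox genes gave 8 higher and 5 lower of 28, but 4 higher and 11 lower with quantile normalisation and 4 and 9 with scaling to the library total. The higher ones were 6 of the HoxD cluster on chromosome 2 with Hoxb2 and Hoxb4, and the lower ones were 4 of the HoxC cluster on chromosome 15 with Hoxb9. Hoxd11 was at 82.5 and 155 in FL and 0.660 and 2.57 in mCherry, Hoxd8 at 39.8 and 122.6 in FL and 12.5 and 11.2 in mCherry, Hoxd9 at 69.2 and 117 in FL and 24.4 and 25.7 in mCherry and Hoxd13 at 53 and 168 in FL and 36.9 and 47.2 in mCherry, rises of 5.55, 2.47, 1.80 and 1.16 (limma adjusted p = 6.31e-07, 2.36e-04, 7.52e-04 and 0.0386). Hoxc12 was at 16.2 and 8.33 in FL and 131 and 125 in mCherry and Hoxc13 at 108 and 199 in FL and 384 and 404 in mCherry, log2 differences of -3.35 and -1.42 (adjusted p = 1.58e-06 and 8.04e-04). The rise of Hoxd13 rests on FL replicate 2 (0.34 without it), those of Hoxd9 and Hoxd13 were not called with scaling to the library total (0.79 and 0.15), and the fall of Hoxc13 was -0.98 without FL replicate 1. Hoxd8, Hoxd9, Hoxd11 and Hoxd13 were also higher in the library kind of FL by 0.91, 2.20, 1.58 and 1.35 in 1 of the constructs that hold both kinds, and by -0.06, 1.01, 0.36 and -0.44 in the other, and the part of this in the rises was not tested. In the other homeobox families, Nkx, Dlx, Msx and Pitx genes gave 5 higher and 5 lower of 19 (2 and 5 with either of those scalings). Lhx, Pax, Irx and sine oculis-type genes gave 4 and 3 of 20 (1 and 5 with quantile normalisation, 2 and 8 with scaling to the library total).

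Germline genes gave 14 higher and 3 lower of 30, against a background of 24.5% higher. Quantile normalisation gave 12 higher and 3 lower, but scaling to the library total 4 higher and 6 lower. The higher ones included Tdrd1, a tudor protein of piRNA granules, at 281 and 171 in FL and 9.90 and 13.7 in mCherry, Asz1, a mitochondrial piRNA factor, at 380.1 and 83.3 in FL and 15.8 and 11.2 in mCherry, Slc25a31, the testis ADP/ATP carrier, at 508 and 381 in FL and 40.2 and 44.6 in mCherry and Dmc1, the meiotic recombinase, at 121 and 69.0 in FL and 20.5 and 11.2 in mCherry. They rose by 4.12, 3.65, 3.35 and 2.52 (limma adjusted p = 1.02e-05, 6.99e-05, 1.10e-07 and 1.86e-04). The 3 lower were factors of primordial germ cells that stem cells also express, Prdm14 at 273 and 311 in FL and 2172 and 2306 in mCherry, Prdm1 at 28.0 and 48.8 in FL and 282 and 251 in mCherry and Kit at 1351 and 2626 in FL and 6671 and 6675 in mCherry, log2 differences of -2.94, -2.81 and -1.82. Oocyte and maternal genes gave 3 higher and 1 lower of 9, and 1 higher and 2 lower with either of those scalings.

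Retinoid and nuclear receptor genes gave 6 higher and 6 lower of 22, or 27.3% each way. The shares were 24.5% and 19.6% of all genes tested and 12.3% and 22.3% of low-copy protein-coding genes. The list gave 4 higher and 8 lower under quantile normalisation and 2 and 9 under scaling to the library total. Rxrg, a retinoid X receptor, gave 52 and 60 reads in FL and none in mCherry, at least 32.5-fold higher (limma adjusted p = 6.26e-07). Aldh1a3, an enzyme that makes retinoic acid, was at 491 and 332 in FL and 48.8 and 55.8 in mCherry and rose by 2.93 (adjusted p = 2.17e-06). Rara, a retinoic acid receptor, was at 51.6 and 71.4 in FL and 903 and 927 in mCherry and fell by 3.89 (SE 0.41, adjusted p = 3.44e-06).

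The largest single fall was in metabolism. Cps1, carbamoyl phosphate synthetase of the urea cycle (ENSMUSG00000025991, chromosome 1, 67123026 to 67231259), was at 38.3 and 16.7 normalised reads in FL and 3812 and 3813 in mCherry (log2 difference -7.18, SE 0.40, adjusted p = 6.25e-09, limma), the lowest of the low-copy protein-coding genes that met the naming rule. Arg2, the mitochondrial arginase, had 93 and 226 reads in FL and 2 and 2 in mCherry (adjusted p = 4.94e-08). Arg2 was higher in the library kind of FL too, by 1.93 and 1.80 in the constructs that hold both kinds, and the part of this in its rise was not tested. The arginine and urea cycle list as a whole gave 4 higher and 3 lower of 18, and 2 higher and 7 lower with scaling to the library total. Other large falls were Osm, a cytokine of the LIF family, at 4.42 and 10.7 in FL and 366 and 362 in mCherry, Inhbb, an activin subunit, at 4.42 and 32.1 in FL and 486 and 548 in mCherry, Cdc42ep1, an effector of CDC42, at 0 and 2.38 in FL and 95.0 and 109 in mCherry and Msc, a basic helix-loop-helix repressor, at 1.47 and 4.76 in FL and 145 and 154 in mCherry. They had log2 differences of -5.52, -5.27, -5.80 and -5.32 (limma adjusted p = 5.08e-06, 3.78e-04, 4.91e-06 and 2.35e-05). Gm11627, Gm12258, Mob3c, A630089N07Rik, Catip and Kbtbd11 complete the 12 largest with Junb, with log2 differences between -6.09 and -5.29.

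Genes of energy metabolism and protein turnover had medians of at most 1 on the log2 scale, and their direction depends on the scaling. Nuclear oxidative phosphorylation subunits gave 19 higher and 0 lower of 79 (8 higher without FL replicate 1, 32 without FL replicate 2, and 1 higher and 5 lower with scaling to the library total) and a median of 0.82 with the authors' size factors, 0.42 with quantile normalisation and -0.22 with scaling to the library total. Proteasome subunits gave 5 higher and 0 lower of 37 (0 and 11 higher without those replicates, and 0 higher and 3 lower with scaling to the library total) and medians of 0.70, 0.11 and -0.33. Cytoplasmic ribosomal proteins gave 42 higher and 1 lower of 85 (0 higher with either other scaling) and medians of 1.00, -0.23 and -0.03, and 67 of the 85 have shared sequence. Glycolysis genes gave 7 higher and 2 lower of 24 (2 and 3 with quantile normalisation, 2 and 5 with scaling to the library total) and medians of 0.69, -0.11 and -0.34. Within that list Aldoc, the brain aldolase, and Slc16a3, a lactate exporter, rose beyond these shifts. Aldoc was at 689.5 and 864 normalised reads in FL and 48.2 and 50.6 in mCherry (log2 difference 3.94, SE 0.21, adjusted p = 4.34e-09, limma), and Slc16a3 was at 944 and 1421 in FL and 211 and 196 in mCherry (log2 difference 2.51, SE 0.25, adjusted p = 1.92e-06, limma). Hk2, a hexokinase, was at 2359 and 4018 in FL and 7732 and 7968 in mCherry and fell by 1.35, with -0.97 without FL replicate 1 and -0.99 with libraries centred on low-copy genes. Serine, glycine and one-carbon genes gave 5 higher and 1 lower of 21, and 0 higher and 3 lower with scaling to the library total.

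Cell cycle and genome maintenance genes mostly did not pass the test. Cyclins and cell cycle kinases gave 1 higher and 12 lower of 40, DNA replication 2 and 4 of 32 and DNA repair 3 and 1 of 30 (0 higher and 13 lower with scaling to the library total). With libraries centred on low-copy genes DNA replication gave 6 higher and 2 lower. E2f2, an activating E2F, was at 26.5 and 29.8 in FL and 345 and 325 in mCherry and fell by 3.53, and Ccnd1, cyclin D1, was at 682 and 434 in FL and 2377 and 2623 in mCherry and fell by 2.20 (limma adjusted p = 2.77e-06 and 0.00397). Cdkn2a, which codes for the inhibitors INK4A and ARF, was the 1 higher, at 656 and 682 in FL and 272 and 281 in mCherry (log2 difference 1.27, SE 0.19, adjusted p = 6.15e-05, limma), a difference of 0.24 with scaling to the library total. Replication-dependent histone genes, whose transcripts are known to lack poly(A) tails in cycling cells, were higher in 56 of 58, but 51 of them have shared sequence. The 7 low-copy ones gave 6 higher with a median of 2.52.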

How the data were processed

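Poly(A) RNA of 4 libraries, 2 of FL and 2 of mCherry, was analysed within the table of 14 libraries (7 groups of 2). The deposited values are a signal, namely each gene's reads over a size factor of the library. All of them were whole multiples of the smallest value in their column (100%, tolerance 0.01), so the authors' whole reads could be recovered. Trim Galore 0.5.0, FastQC, DESeq2 and the build mm10 are named in the submitters' processing notes. The aligner, the counter and how reads of copies were assigned are not given in the sources used here. Symbols, coordinates and shared sequence (50-base stretches on the same strand) come from GENCODE M21 (GRCm38).

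The test was limma 3.58.1 (R 4.3.3; lmFit and eBayes with trend) on log2(value + 1) over all 14 libraries, which share 1 estimate of the spread, for genes with at least 10 in at least 2 libraries. It was run on simulated counts with few changed genes and the same spread in every group. These data differ in both respects, so that run does not check the calls made here. A difference on this scale understates the change of low genes. A library with 0 reads is compatible with up to 3 reads, which covers counting error only. edgeR and DESeq2 were run on the recovered reads as alternatives. Named genes are, for each list, up to 4 called members each way with a mean of at least 50 and no overlap (the members of highest level where under 2 were called), and the 12 largest rises and falls among low-copy protein-coding genes with a mean of at least 100. Some genes that the rule names are left out. The groups did not overlap in 5285 of the 5290 genes called higher and 4240 of the 4241 called lower, so this condition adds little to a call. The members, the 58 lists and the tests were chosen with earlier results of these data known.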

Additional observations from a re-analysis of the deposited data

How the results depend on the processing

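Of 17 alternatives, most left the counts of 5290 higher and 4241 lower genes within 1.5 times. Scaling to the library total gave 9229 lower genes, and without genes that share 10% or more of their 50-base stretches 6345 were called, 2621 higher. Of the 5290 higher and 4241 lower genes, edgeR also called 4790 and 4101 and DESeq2 5049 and 3776. With only the FL and mCherry libraries fitted, 8705 genes were called, 4962 higher and 3743 lower. FL replicates were further apart than mCherry replicates (r 0.964 and 0.993), which the pooled spread does not separate. Leaving out 1 replicate at a time gave 8359 to 9772 genes called, 4768 to 5442 higher and 3587 to 4330 lower. Quantile normalisation turned Pou5f1 to -0.43 and Trim28 to -0.18, and scaling to the library total turned Pou5f1 to -0.36. Of the 150 called genes named, 132 kept their call in every alternative that tested them, and the most lost it with scaling to the library total, 11. Most were named for large changes, so this share does not describe all called genes. Scaling to the library total kept 3589 of the 5290 higher calls and all 4241 lower calls. Centring on low-copy genes kept all 5290 higher calls and 2994 of the 4241 lower calls.

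Replicate numbers do not pair the samples: deviations of FL and mCherry libraries with the same number correlated at -0.004, and over 21 pairs of groups the correlation ran from -0.10 to 0.05. With a replicate block 9477 genes were called, 5266 higher and 4211 lower, and no named gene lost its call. With 2 replicates a group, an exact permutation test of 1 gene cannot reach 0.05. In low genes the reads limit what can be seen: a gene absent from a library may have had up to 3 reads.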

Other observations

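Several groups outside the comparisons above also held called genes. Imprinted genes, expressed from 1 parental copy, gave 2 higher and 10 lower of 24. Magel2 and its neighbour Ndn on chromosome 7 were the 2 higher, Magel2 at 224 and 208 in FL and 3.30 and 5.15 in mCherry and Ndn at 442 and 314.3 in FL and 79.8 and 92.6 in mCherry, rises of 5.40 and 2.10 (limma adjusted p = 4.19e-07 and 7.17e-06). The noncoding genes Meg3, Rian and Mirg of the cluster on chromosome 12 were all lower, with log2 differences of -2.84, -2.09 and -3.40 (adjusted p = 1.29e-05, 2.40e-05 and 2.65e-05). Meg3 was at 343 and 968 in FL and 3919 and 4363 in mCherry. These genes were named because they were called, so they do not describe either cluster as a whole.

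Genes of the matrix and of cell contact changed without a common direction. Collagen, laminin and integrin genes gave 15 higher and 7 lower of 69, but 9 and 16 with quantile normalisation and 7 and 25 with scaling to the library total. Named among them are Col6a1, a subunit of collagen VI, at 379 and 383 in FL and 3.30 and 4.29 in mCherry (log2 difference 6.32, SE 0.59, adjusted p = 9.63e-07, limma) and Lama5, a laminin subunit of the basement membrane, at 1591 and 1732 in FL and 4396 and 4987 in mCherry, a log2 difference of -1.50. Epithelial junction and keratin genes gave 3 higher and 10 lower of 32. The gap junction genes Gja1 and Gjb5 were at 60.4 and 64.3 in FL and 754 and 813 in mCherry and at 7.37 and 42.9 in FL and 618 and 599 in mCherry, log2 differences of -3.63 and -4.99 (limma adjusted p = 1.49e-07 and 4.85e-04). Ovol1, an epithelial zinc finger factor, had 48 and 95 reads in FL and 1 and 0 in mCherry. Interferon and antigen presentation genes gave 4 higher and 9 lower of 25, with H2-K1, a class I antigen-presenting molecule, at 279.9 and 459 in FL and 40.2 and 42.0 in mCherry and Irf9, a factor of interferon signalling, at 25 and 27.4 in FL and 326 and 327 in mCherry. H2-K1 rose by 3.09 and Irf9 fell by 3.59 (limma adjusted p = 7.84e-07 and 5.71e-08). With libraries centred on low-copy genes the interferon and antigen presentation list gave 7 higher and 5 lower.

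Solute carriers gave 31 higher and 74 lower of 261. Slc38a2, an amino acid transporter induced by ATF4, was at 75.1 and 168 in FL and 1887 and 1939.6 in mCherry and fell by 4.08 (SE 0.29, limma adjusted p = 8.10e-08). Lysosome and autophagy genes gave 2 higher and 5 lower of 26, the lower ones including Tfeb and Tfe3, master regulators of lysosome genes, which had log2 differences of -2.58 and -2.31. Cholesterol genes gave 7 lower and 0 higher of 26. In the lists that follow, the shares called were below those of all genes tested (24.5% higher and 19.6% lower), apart from lower calls in transcription elongation, and the counts depend on the scaling. Heat shock genes gave 4 higher and 2 lower of 21, but 3 and 7 with quantile normalisation and 0 and 8 with scaling to the library total. Splicing factors gave 2 higher and 3 lower of 32, but 0 and 18 and 0 and 21 with those scalings. Ribosome biogenesis gave 1 and 2 of 32 (0 and 5, 0 and 14), translation initiation 1 and 2 of 26 (0 and 7, 0 and 10) and transcription elongation 2 and 6 of 28 (1 and 7, 1 and 14). With libraries centred on low-copy genes the balance went the other way. Splicing factors then gave 3 higher and 1 lower, ribosome biogenesis 4 and 1, translation initiation 7 and 0 and transcription elongation 6 and 2. Mitochondrially encoded proteins gave 2 higher and 0 lower of 13, but 0 and 5 with quantile normalisation and 0 and 0 with scaling to the library total. Aff1, a subunit of the super elongation complex, was at 784 and 1242 in FL and 4807 and 4824 in mCherry and fell by 2.29 (limma adjusted p = 6.76e-08).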
